A study of Homo sapiens with 3 samples.

Results

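The aminoacyl-tRNA synthetases examined here were 36 genes, chosen by name out of the 25270 gene symbols listed for each library. Of these, 20 encode the cytosolic enzymes and 16 encode mitochondrial enzymes, whose symbols end in 2. RNA-seq had been performed on HepG2, a human hepatocellular carcinoma cell line (HepG2/wild, no treatment), on HepG2/metR, a lactate-producing subline left after metformin selection lasting over 5 months, and on HepG2/metR cells after 24 h in 40 mM oxamate, which blocks lactate dehydrogenase (HepG2/metR+oxamate). Each condition had a single library (3 in all), so no value below has a replicate error, no difference was tested, and the folds describe these libraries only. Levels are given as FPKM, fragments scaled by transcript length and by the size of the library, and changes as differences of log2(FPKM + 1), a scale on which the change of low genes comes out too small. How many reads stood behind each library is not known.

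A synthetase joins 1 amino acid to its tRNA and so supplies every codon for that amino acid. In human cells nuclear genes encode a set of enzymes for the cytosol and a largely separate set that is imported to charge the tRNAs of mitochondria, where a small number of respiratory chain subunits are translated. GARS and KARS serve both compartments, EPRS carries the glutamate and proline enzymes in 1 protein, and FARSA and FARSB are the subunits of 1 cytosolic enzyme. Several cytosolic synthetase genes are known targets of ATF4, the transcription factor induced when uncharged tRNA or other stress leads to phosphorylation of eIF2.

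The liver identity of the cells differed between the cultures, which bears on every difference between HepG2/metR and HepG2/wild. All 8 hepatocyte markers were listed at 1 FPKM or more in HepG2/wild, against 2 of 8 in each HepG2/metR library, and their summed level was 30953 FPKM in HepG2/wild, 13.9 in HepG2/metR and 11.1 with oxamate, with APOA1 and TTR listed at 0 in HepG2/metR. The 6 mesenchymal markers summed to 1573, 2217 and 1656 FPKM, with FN1 falling from 1503 to 45.7 FPKM and VIM rising from 1.23 to 1576 FPKM between HepG2/wild and HepG2/metR, the 3 leukocyte markers to 37.9, 43.7 and 31.6 FPKM, nearly all of it CD68, and the 3 endothelial markers to 0.314, 0.0234 and 0.0388 FPKM. Selection by metformin, the history of each culture and variation between library preparations cannot be told apart in that comparison, nor can fewer cells of a type and less RNA per cell. The part of the marker differences in the synthetase results was not tested.

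All 36 genes had a mean of at least 1 FPKM over the libraries and were among the 12192 genes kept by that filter. In HepG2/wild the cytosolic genes ranged from 15.3 FPKM for CARS, the cysteine enzyme, to 133 FPKM for KARS, the lysine enzyme, with a median of 62.9 FPKM. The mitochondrial genes were lower, from 2.72 FPKM for PARS2, the proline enzyme, to 71.7 FPKM for IARS2, the isoleucine enzyme, with a median of 17.2 FPKM. PARS2 and IARS2 were the lowest and the highest mitochondrial member in every library. The highest cytosolic member was SARS, the serine enzyme, in HepG2/metR (169 FPKM) and with oxamate (126 FPKM), and the lowest was WARS, the tryptophan enzyme, at 33.2 and 27.2 FPKM.

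**Figure D1:**
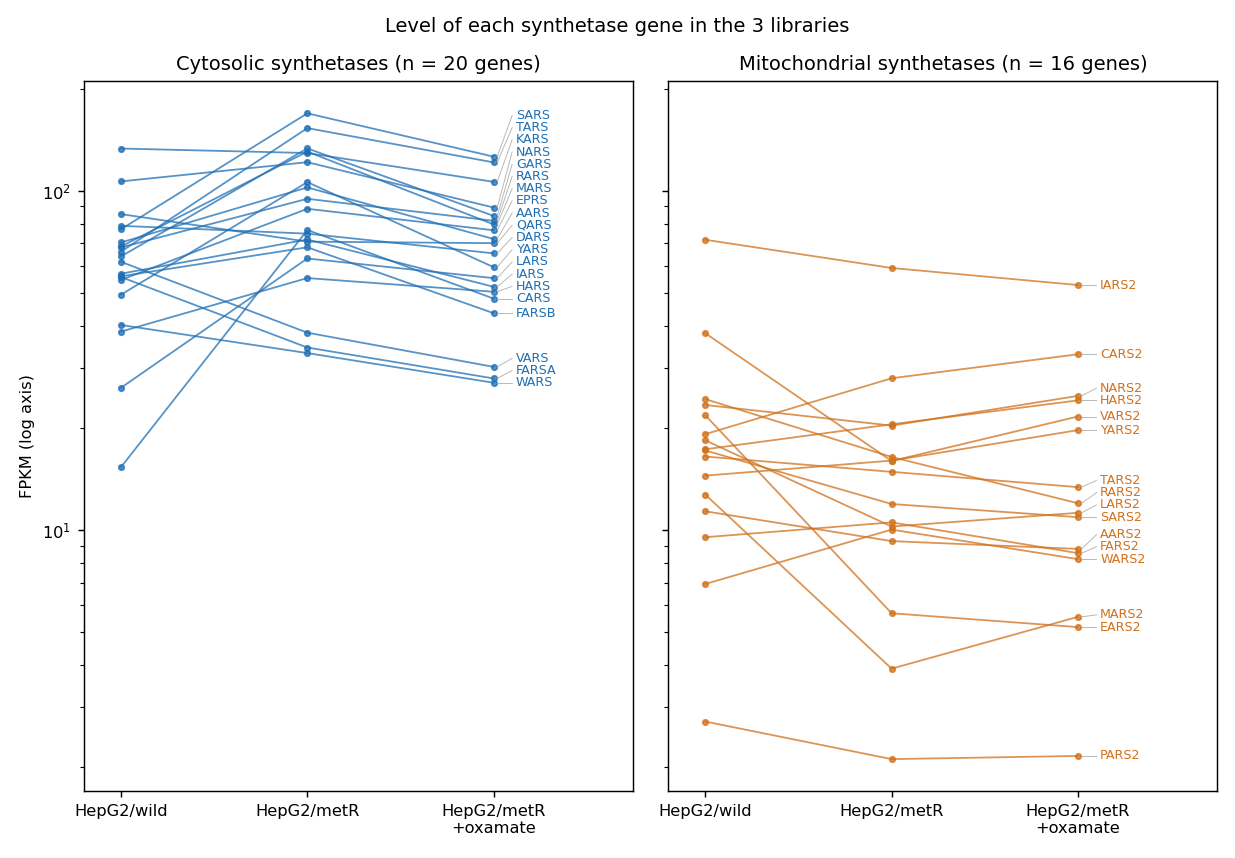
Level of each synthetase gene in the 3 libraries, in FPKM on a log axis, with 1 line per gene and 1 library per point, so no error can be drawn. The 20 cytosolic genes (left) lie between 15.3 and 169 FPKM, and the 16 mitochondrial genes (right) between 2.11 and 71.7 FPKM.

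Summed over genes, the cytosolic synthetases were listed at 1273 FPKM in HepG2/wild, 1815 FPKM in HepG2/metR and 1367 FPKM with oxamate. The mitochondrial synthetases summed to 325, 255 and 262 FPKM. The cytosolic sum was thus 3.91 times the mitochondrial sum in HepG2/wild, 7.12 times in HepG2/metR and 5.22 times with oxamate. Without GARS and KARS the ratios were 3.31, 6.09 and 4.49, in the same order. The compartments therefore stood furthest apart in the untreated HepG2/metR library.

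Promoters are shown for the members that hold the letters of an ATF4 site, because several cytosolic synthetase genes are known targets of ATF4. This search was added after the values were seen. With oxamate the mRNAs of ATF4 and MYC were lower to a similar extent, and the letters of the MYC E-box (CACGTG) were searched too. They were present in 1 of the 16 cytosolic genes with a window (IARS) and 3 of the 14 mitochondrial genes (CARS2, EARS2 and MARS2), against 7.26% of all windows. The NRF1 palindrome, GCGCA joined to TGCGC, was present in 0 cytosolic genes and 1 mitochondrial gene (MARS2), against 1.24%. ATF4 binds with C/EBP partners at a composite element, searched here as TGATGNAA on both strands in windows from 250 bases before to 50 bases after each RefSeq start (GRCh38.p14), and as TGATGCAA, a stricter form contained in the first. Windows were found for 30 of the 36 members, and none for DARS, LARS, VARS, YARS, AARS2 and VARS2. TGATGNAA was present in 7 of the 16 cytosolic genes and 1 of the 14 mitochondrial genes with a window, against 3.62% of the 35116 windows in the table, and genes with more than 1 start have more than 1 window. TGATGCAA was present in 6 of the 16 cytosolic genes (AARS, CARS, IARS, MARS, NARS and TARS), in 0 of the 14 mitochondrial genes and in 0.866% of all windows. The matches are printed in capitals, 5′ to 3′ on the strand of the gene, and TTGCATCA is TGATGCAA read on the other strand. In 6 of the cytosolic genes they lie close to the start of transcription, and in AARS further upstream. A match is a description of the letters and not a measured binding site. These libraries give mRNA levels and not the activity of ATF4 or MYC, and the part of either in the changes was not tested.
CARS: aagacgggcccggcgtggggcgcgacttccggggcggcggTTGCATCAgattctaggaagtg
MARS: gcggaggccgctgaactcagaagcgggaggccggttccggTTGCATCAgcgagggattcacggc
GARS: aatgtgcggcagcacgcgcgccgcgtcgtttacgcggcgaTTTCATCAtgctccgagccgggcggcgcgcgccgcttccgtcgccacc
AARS: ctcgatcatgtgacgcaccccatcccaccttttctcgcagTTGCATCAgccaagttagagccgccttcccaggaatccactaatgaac
IARS: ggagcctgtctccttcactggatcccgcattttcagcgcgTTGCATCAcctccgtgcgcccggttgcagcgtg
NARS: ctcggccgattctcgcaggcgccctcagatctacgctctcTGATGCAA
TARS: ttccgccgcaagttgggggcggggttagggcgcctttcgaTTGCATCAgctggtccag
YARS2: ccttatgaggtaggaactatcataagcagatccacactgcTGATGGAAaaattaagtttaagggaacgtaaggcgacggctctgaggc
These stretches are chr11:3057404-3057465 (minus strand) for CARS, chr12:57488024-57488087 (plus) for MARS, chr7:30594805-30594892 (plus) for GARS, chr16:70289646-70289733 (minus) for AARS, chr9:92293678-92293750 (minus) for IARS, chr18:57621815-57621862 (minus) for NARS, chr5:33440927-33440984 (plus) for TARS and chr12:32756047-32756134 (minus) for YARS2. At most the last 22 bases of any of them lie past the start.

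The first comparison asks which synthetase genes differ between the hyper-glycolytic HepG2/metR cells and parental cells. Cytosolic synthetase genes were mostly higher in HepG2/metR and mitochondrial ones mostly lower. Of the 20 cytosolic genes, 14 were higher, against 50.6% of all genes kept, and 6 were at least 2-fold higher, against 16.6%. None of the 20 was at least 2-fold lower. Of the 16 mitochondrial genes, 11 were lower, against 49.3% of all genes kept, 3 were at least 2-fold lower, against 17.6%, and 0 were at least 2-fold higher. The median log2 change was 0.49 for the cytosolic and -0.26 for the mitochondrial genes, beside 0.015 for all genes kept. The 3 of 16 mitochondrial genes were close to the share among all genes, and the 6 of 20 cytosolic genes were above theirs, as they were above the 13.8% seen among genes of similar level.

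CARS, which charges tRNA with cysteine, was the cytosolic member with the largest difference. It was listed at 15.3 FPKM in HepG2/wild, 76.6 in HepG2/metR and 48.1 with oxamate, a log2 change of 2.25 in HepG2/metR, or 4.75-fold. LARS, the leucine enzyme, was listed at 26.3, 63.2 and 55.3 FPKM, a log2 change of 1.23 in HepG2/metR. CARS and LARS were the lowest cytosolic members in HepG2/wild and had come within the range of the others in HepG2/metR.

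TARS, the threonine enzyme, was listed at 66.2, 153 and 121 FPKM in HepG2/wild, HepG2/metR and oxamate-treated cells, a log2 change of 1.20 in HepG2/metR. SARS, which also charges the tRNA for selenocysteine with serine, was listed at 77.1, 169 and 126 FPKM, a change of 1.12. YARS, the tyrosine enzyme, was listed at 49.4, 106 and 59.6 FPKM, a change of 1.09. GARS, the glycine enzyme, was listed at 64.1, 133 and 84.4 FPKM, a change of 1.05, close to the 2-fold limit. MARS, the methionine enzyme that also serves initiation, was just below that limit at 0.92, with 68.5, 131 and 79.6 FPKM. In each of these genes the HepG2/metR library held the highest of the 3 values. Between 0 and the 2-fold limit lay EPRS at 0.69 (54.7, 88.5 and 76.5 FPKM), AARS at 0.53, HARS at 0.51, RARS at 0.47, IARS at 0.33, FARSB at 0.28 and NARS at 0.19.

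A group of 6 cytosolic genes was lower in HepG2/metR than in HepG2/wild, none by as much as 2-fold. VARS, the valine enzyme, was listed at 61.7, 38.2 and 30.3 FPKM, a log2 change of -0.68. FARSA, the catalytic subunit of the phenylalanine enzyme, was listed at 55.7, 34.5 and 28.0 FPKM, a change of -0.67. Its partner FARSB was listed at 56.0, 68.2 and 43.6 FPKM, so that FARSB stood at 1.01 times FARSA in HepG2/wild, 1.97 times in HepG2/metR and 1.56 times with oxamate. The mRNAs of the 2 subunits, level in parental cells, were thus unequal in both HepG2/metR libraries. QARS and WARS each differed by -0.27, DARS by -0.08 (78.8, 74.8 and 65.4 FPKM) and KARS by -0.04 (133, 129 and 106 FPKM). The sign of KARS turned when the libraries were scaled by their upper quartile or by their total, and that of DARS under the upper quartile.

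EARS2, the mitochondrial glutamate enzyme, showed the largest mitochondrial difference. It was listed at 21.8 FPKM in HepG2/wild, 5.68 in HepG2/metR and 5.17 with oxamate, a log2 change of -1.77 in HepG2/metR. Mitochondria have no aminoacyl-tRNA synthetase for glutamine of their own. Their glutamine tRNA is first charged with glutamate by EARS2 and then amidated by a complex of 3 proteins. The genes of that complex were all lower in HepG2/metR, with PET112 (now named GATB) at 23.1, 8.51 and 6.38 FPKM, QRSL1 at 8.97, 5.93 and 7.37 FPKM and GATC at 14.3, 11.9 and 12.7 FPKM. Of these, PET112 was past 2-fold, with a log2 change of -1.34.

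MARS2, the mitochondrial methionine enzyme, was listed at 12.7, 3.90 and 5.55 FPKM, a log2 change of -1.48 in HepG2/metR. VARS2, the mitochondrial valine enzyme, was listed at 38.0, 16.0 and 21.6 FPKM, a change of -1.20. LARS2, the mitochondrial leucine enzyme, was the next lowest at -0.79, with 18.4, 10.2 and 11.2 FPKM. On the upper side the largest values were 0.52 for CARS2 (19.2, 28.0 and 33.0 FPKM) and 0.48 for WARS2 (6.93, 10.0 and 8.21 FPKM). Between these extremes RARS2 lay at -0.54, SARS2 at -0.49 (17.2, 11.9 and 10.9 FPKM), AARS2 and IARS2 at -0.27, PARS2 at -0.26, NARS2 at -0.19 and TARS2 at -0.14 (16.5, 14.8 and 13.4 FPKM), with FARS2, YARS2 and HARS2 at 0.13, 0.14 and 0.23. The sign of TARS2 turned under the upper quartile. In transcripts of GENCODE release 29, 21.1% of the 50-base stretches of VARS2 and 39.5% of those of SARS2 also lie in transcripts of another gene on the same strand. Those 2 levels are therefore uncertain, and the same-strand share was at most 2.31% for any other member. The share also read from the other strand was 8.21% for SARS2, 7.48% for MARS, 6.68% for WARS and 5.43% for EARS2. It was highest for HARS2, at 8.71%. Whether it reached the levels is not known, because the use of strand is not given.

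The second comparison asks what oxamate does to HepG2/metR cells, and it shares the untreated HepG2/metR library with the first, so the comparisons are not independent. All 20 cytosolic synthetase genes were lower with oxamate, against 45.6% of all genes kept. Of them, 5 were at least 1.5-fold lower, against 3.82% of all genes kept, and 0 were at least 1.5-fold higher, against 4.31%. Their median log2 change was -0.33, beside 0.02 for all genes kept. With libraries scaled to equal FPKM totals, 1 cytosolic gene (YARS) remained at least 1.5-fold lower and the median was -0.16, or -0.14 when small RNA genes were left out of the totals. No cytosolic gene was past 2-fold in either direction, against 0.541% of all genes kept on the upper side and 0.525% on the lower. Of the 16 mitochondrial genes, 8 were lower and 8 higher, against 52.9% higher among all genes kept, 0 were past 1.5-fold in either direction, and the median was -0.02.

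Level moved with this result. Among the 1875 genes kept whose mean FPKM lay within the range of the cytosolic members (33.5 to 124 FPKM), 74.4% were lower with oxamate, 7.57% were at least 1.5-fold lower and the median log2 change was -0.17. Among the 9457 genes in the range of the mitochondrial members (2.33 to 61.2 FPKM), 42.4% were lower and the median was 0.05. The cytosolic median of -0.33 lay below the first of these medians, and the mitochondrial median of -0.02 below the second, so part of the distance between the compartments is also seen between genes of those levels in general. What part level had in the result was not tested further.

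**Figure D2:**
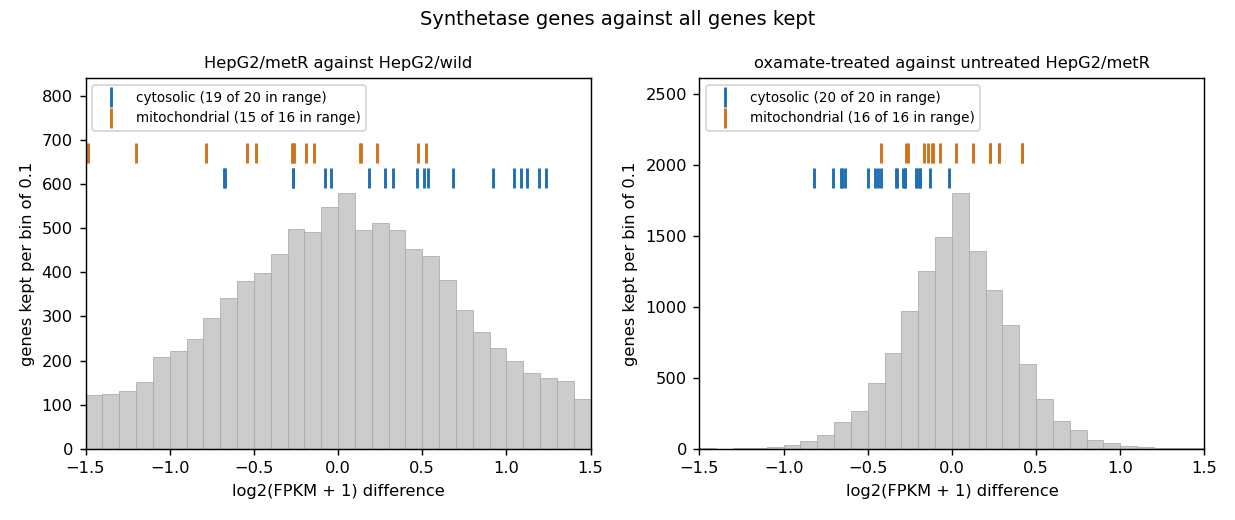
Number of genes kept per 0.1 bin of the log2(FPKM + 1) difference for both comparisons (grey bars, out of 12192 genes, drawn from -1.5 to 1.5), with the 20 cytosolic (blue) and 16 mitochondrial (orange) synthetase genes as ticks. With oxamate (right) the blue ticks run from -0.82 to -0.01 and the orange ticks from -0.42 to 0.42.

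YARS was the member with the largest fall, a log2 change of -0.82 with oxamate, from 106 to 59.6 FPKM. MARS changed by -0.71, CARS by -0.66, GARS by -0.65 and FARSB by -0.63, and these 5 were the members at least 1.5-fold lower as deposited. With equal totals YARS stayed past that fold at -0.65, and MARS (-0.53), CARS (-0.49), GARS (-0.48) and FARSB (-0.46) did not. AARS, the alanine enzyme, was next at -0.50, with 70.5 FPKM in HepG2/wild, 102 in HepG2/metR and 72.1 with oxamate. IARS, the isoleucine enzyme, followed at -0.46 (57.0, 71.9 and 52.1 FPKM), NARS, the asparagine enzyme, at -0.44 (107, 121 and 89.3 FPKM) and SARS at -0.42. With oxamate IARS and NARS lay below their HepG2/wild values, and AARS lay just above its own.

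The smallest changes in the cytosolic set were those of QARS, the glutamine enzyme, at -0.01 (85.4, 70.8 and 70.1 FPKM) and HARS, the histidine enzyme, at -0.13 (38.5, 55.3 and 50.4 FPKM). DARS, the aspartate enzyme, LARS, EPRS and RARS, the arginine enzyme (68.1, 94.7 and 81.6 FPKM), lay between -0.19 and -0.21. KARS, WARS, FARSA, VARS and TARS followed, from -0.28 to -0.33. Scaling decided the sign of the smallest of these. After scaling to equal FPKM totals, under which the median of all genes kept was 0.17, 18 of 20 cytosolic genes were lower and HARS and QARS were higher. When small RNA genes were left out of that total, 16 were lower, and DARS, HARS, LARS and QARS were higher. Relative to the median of all genes under the same scaling, all 20 were lower in each of the 4 scalings tried and as deposited, and the cytosolic median was between -0.35 and -0.32 relative to it.

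**Figure D3:**
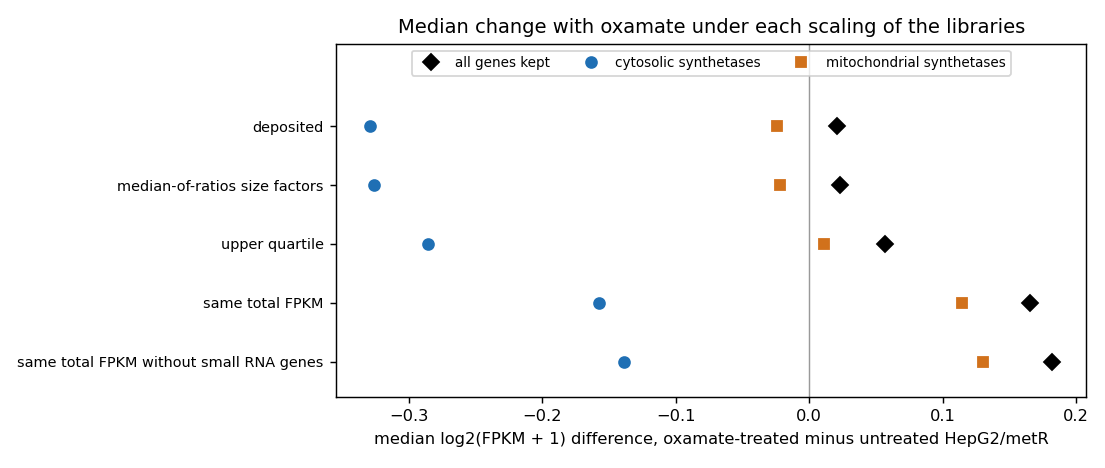
Median log2(FPKM + 1) difference, oxamate-treated minus untreated HepG2/metR, of all genes kept, the 20 cytosolic and the 16 mitochondrial synthetase genes, for the deposited values and 4 scalings of the libraries. All 3 medians shift to the right when libraries are scaled to the same total, and the cytosolic median stays below the median of all genes by 0.32 to 0.35.

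Among the mitochondrial genes, MARS2 and VARS2 had the highest values with oxamate, at 0.42 and 0.41 on the log2 scale. YARS2, the tyrosine enzyme (14.5, 16.0 and 19.7 FPKM), and NARS2, the asparagine enzyme (23.4, 20.3 and 24.9 FPKM), both changed by 0.28. RARS2, the arginine enzyme, was the lowest at -0.42 (24.3, 16.4 and 11.997 FPKM), followed by FARS2 at -0.27 (9.52, 10.5 and 8.55 FPKM) and WARS2 at -0.26. CARS2, HARS2, LARS2 and PARS2 were also higher, by 0.02 to 0.23, and IARS2, TARS2, SARS2, EARS2 and AARS2 lower, from -0.16 to -0.07, though these 5 turned higher with equal totals. The direction of the mitochondrial median turned with scaling, to 0.011 under the upper quartile and to 0.11 and 0.13 with equal totals, where 13 of the 16 genes were higher, while relative to all genes it was between -0.05 and -0.04.

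For 13 amino acids the cytosolic and the mitochondrial enzyme are each encoded by 1 member, and the enzymes of a pair could be set against each other. In HepG2/metR against HepG2/wild the mitochondrial gene changed less, or further downward, than its cytosolic partner in 12 of the 13 pairs, with a median gap of -0.95 on the log2 scale. The exception was tryptophan, where WARS changed by -0.27 and WARS2 by 0.48. In 8 of the 13 pairs the cytosolic gene was higher and the mitochondrial gene lower, or 7 under the upper quartile. The widest gap was that of methionine, where MARS was 5.39 times MARS2 in HepG2/wild, 33.4 times in HepG2/metR and 14.4 times with oxamate.

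With oxamate the mitochondrial gene lay above its cytosolic partner in 12 of the 13 pairs, with a median gap of 0.36, and in 7 of them the cytosolic gene was lower and the mitochondrial gene higher. Those 7 pairs were the ones for cysteine, histidine, leucine, methionine, asparagine, valine and tyrosine. The count depended on scaling, with 10 such pairs under equal totals (histidine left, and alanine, isoleucine, serine and threonine joined) and 9 when small RNA genes were also left out (leucine left as well), while the mitochondrial gene lay above its partner in 12 pairs under each. The exception was arginine, with -0.21 for RARS and -0.42 for RARS2, and the tryptophan pair was level at -0.28 and -0.26. The gaps were largest for methionine (1.12) and tyrosine (1.10). A gap within a pair does not move with the scaling of the libraries, apart from the pseudocount, but the partners also differ in level.

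**Figure D4:**
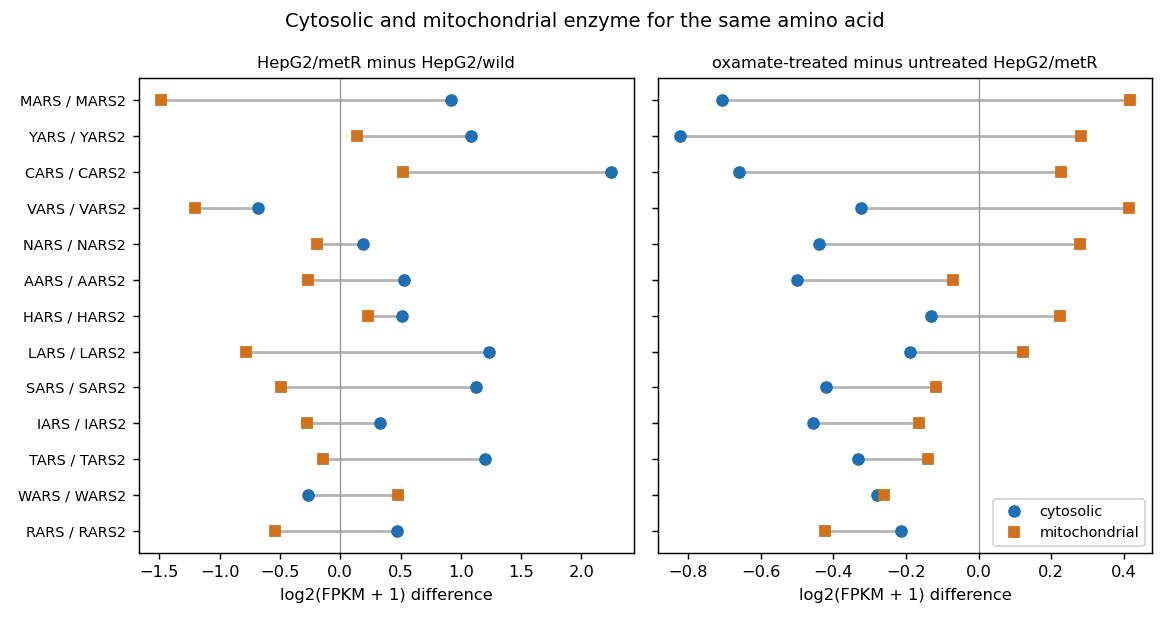
Difference of log2(FPKM + 1) for the cytosolic (circle) and mitochondrial (square) enzyme of 13 amino acids in both comparisons, joined by a grey line, with 1 library on each side of a difference. Squares lie left of circles in 12 of 13 rows on the left panel and right of them in 12 of 13 rows on the right panel.

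HARS and HARS2, the histidine pair, start 85 bases apart on opposite strands of chromosome 5 in the RefSeq windows, the nearest neighbours among the members. The bases between the starts are shown because both genes are read outward from them, written here on the strand of HARS2 (chr5:140691371-140691454, GRCh38.p14, plus strand).
HARS2: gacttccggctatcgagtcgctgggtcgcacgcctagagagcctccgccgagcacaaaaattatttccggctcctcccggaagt
HARS was listed at 38.5, 55.3 and 50.4 FPKM and HARS2 at 17.3, 20.5 and 24.1 FPKM, log2 changes of 0.51 and 0.23 in HepG2/metR and of -0.13 and 0.22 with oxamate. Both genes were higher in HepG2/metR than in HepG2/wild, and with oxamate they differed in direction as deposited. In GENCODE transcripts, 7.81% of the 50-base stretches of HARS and 8.71% of those of HARS2 are also read from the other strand in any other gene. For each of the pair the gene most often found there was its partner, and the share of the partner alone was not counted. Whether the counting of reads used strand is not given in the sources used here.

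Members were also divided by features other than their compartment. Synthetases fall into structural classes I and II with unrelated catalytic folds, and EPRS holds 1 enzyme of each. With oxamate the medians were -0.30 for the 10 cytosolic genes of class I, -0.33 for the 11 of class II, 0.12 for the 9 mitochondrial genes of class I and -0.07 for the 7 of class II. The 3 mitochondrial genes at least 2-fold lower in HepG2/metR (EARS2, MARS2 and VARS2) are all of class I, which holds 9 of the 16 mitochondrial members. As given above, 3 of 16 was close to the 17.6% of all genes kept, and the level of VARS2 is uncertain.

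A further division follows the multisynthetase complex, an assembly of 8 cytosolic synthetase proteins around the scaffolds AIMP1, AIMP2 and EEF1E1. The 8 complex enzymes had a median of 0.40 in HepG2/metR and -0.21 with oxamate, and MARS was the only one at least 1.5-fold lower with oxamate. The 12 cytosolic members outside the complex had medians of 0.52 and -0.43, and 4 of them were at least 1.5-fold lower. The share among all genes kept was 3.82%. With equal totals YARS, outside the complex, stayed past that fold, and MARS and the others did not. AIMP1 was listed at 48.3, 33.3 and 30.5 FPKM and AIMP2 at 55.6, 36.6 and 35.2 FPKM. EEF1E1 was listed at 193, 158 and 101 FPKM, with a log2 change of -0.64 with oxamate. All 3 scaffold genes were lower in HepG2/metR than in HepG2/wild, against 49.3% of all genes kept. Of the 8 complex enzymes, 5 were higher, near the 50.6% of all genes kept.

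The cytosolic members were last divided by a known link to ATF4. The 13 genes with such a link in general knowledge (AARS, CARS, EPRS, GARS, IARS, LARS, MARS, NARS, SARS, TARS, VARS, WARS and YARS) had medians of 0.92 (HepG2/metR) and -0.44 (oxamate) on the log2 scale. This list makes up 13 of the 20 cytosolic genes and was drawn up with earlier results of these data known. It held all 6 members past 2-fold in HepG2/metR, or 6 of its 13 genes, against 16.6% of all genes kept on the higher side. With oxamate the list held 4 of the 5 at least 1.5-fold lower, or 4 of its 13 genes, against 3.82% of all genes kept. The link to ATF4 was not tested by these counts, because the list was drawn up with earlier results known. The other 7 genes had medians of -0.04 and -0.21, and FARSB was the 1 past 1.5-fold with oxamate. By the letters of the promoters above, the 7 cytosolic genes with TGATGNAA changed by -0.71 to -0.33 with oxamate, with a median of -0.50, and the 9 without it by -0.63 to -0.01, with a median of -0.28. Across all genes kept that have a window, the synthetases included, the 252 with TGATGNAA had a median of 0.00 and the 8863 without it 0.02. The 63 with TGATGCAA had a median of -0.13 and the 9052 without it 0.02. Of those 63, 6 are the cytosolic synthetases with that match, so the 63 are not a separate set.

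ATF4 itself was listed at 279 FPKM in HepG2/wild, 290 in HepG2/metR and 180 with oxamate, log2 changes of 0.06 and -0.69. MYC, a transcription factor that also acts on synthetase genes, was listed at 79.3, 74.7 and 46.7 FPKM, changes of -0.09 and -0.67. Neither mRNA was past 2-fold in HepG2/metR, and both were past 1.5-fold with oxamate as deposited. With libraries scaled to equal FPKM totals the median of all genes kept with oxamate was 0.17, against 0.02 as deposited. ATF4, MYC and the pathway genes that follow were not counted again under that scaling, and fewer of them may be past 1.5-fold there. Of 28 genes of the ATF4 pathway outside the synthetases, 27 were kept. With oxamate 24 of the 27 were lower, against 45.6% of all genes kept, and 9 were at least 1.5-fold lower, against 3.82%, with a median of -0.49. The largest falls were in CHAC1, which degrades glutathione (21.6 to 3.70 FPKM, -2.27), and DDIT4, an inhibitor of mTORC1 (26.5 to 4.94 FPKM, -2.21). ASNS, asparagine synthetase, changed by -0.52, from 89.6 to 62.1 FPKM. In HepG2/metR against HepG2/wild the same list was split, with 14 genes higher and 13 lower, near the 50.6% and 49.3% of all genes kept. Of the 27, 7 were at least 2-fold higher and 4 at least 2-fold lower, against 16.6% and 17.6% of all genes kept. The changes ran from -7.51 for PSAT1 of serine synthesis (191 to 0.0532 FPKM) to 4.46 for CHAC1. As deposited, all 7 cytosolic synthetases without the link were lower with oxamate too. With libraries scaled to equal FPKM totals, HARS and QARS of these 7 were higher. When small RNA genes were left out of the totals, DARS was higher as well, and so was LARS of the linked genes. The part of ATF4 in these changes was not tested.

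Other genes of translation gave the setting of each compartment. Their values, and those of the mitochondrial translation genes further on, are given as deposited and were not counted again under other scalings. Of 20 cytosolic translation factors kept, 17 were lower with oxamate, against 45.6% of all genes kept and 74.4% of genes in the level range of the cytosolic synthetases, with a median of -0.29. Of these, 1 of 20 was at least 1.5-fold lower, near the 3.82% of all genes kept, EIF5A (748 to 400.4 FPKM, -0.90). EEF2, which moves the ribosome along, was the highest at 0.20. In HepG2/metR against HepG2/wild their median was 0.26 and 0 of the 20 were past 2-fold in either direction. Their median level was 156 FPKM in HepG2/metR, above that of the cytosolic synthetases.

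Of the 77 mitochondrial ribosomal protein genes, 52 were lower in HepG2/metR, against 49.3% of all genes kept, and 8 at least 2-fold lower, a smaller share than the 17.6% of all genes kept, with a median of -0.20. With oxamate 65 were lower, against 45.6% of all genes kept and 74.4% of genes in the level range of the cytosolic synthetases. Of the 77, 3 were at least 1.5-fold lower, close to the 3.82% of all genes kept, again with a median of -0.20. The extremes with oxamate were MRPL23 at -0.73 (82.2 to 49.3 FPKM) and MRPS25 at 0.32 (11.6 to 14.7 FPKM). Of the 12 mitochondrial translation factors, 8 were lower in HepG2/metR, with a median of -0.49, and 7 with oxamate, with a median of -0.04 and 0 past 1.5-fold. TUFM, the mitochondrial elongation factor Tu, was listed at 207, 94.4 and 78.9 FPKM, a log2 change of -1.12 in HepG2/metR, and C12orf65, a release factor, at 7.05, 18.8 and 13.5 FPKM, a change of 1.30. The ribosomal protein genes had a median level of 45.4 FPKM in HepG2/metR and the mitochondrial synthetases 13.4 FPKM, and genes of the higher level range were more often lower with oxamate in general (74.4% against 42.4%), so their values are not compared further. Among the remaining synthetase-related genes, AARSD1, which clears alanine tRNA charged with the wrong amino acid, was listed at 13.0, 54.5 and 39.9 FPKM, a log2 change of 1.99 in HepG2/metR, DTD1, a deacylase, at 54.4, 30.2 and 21.1 FPKM, and TARSL2, a threonine enzyme of the cytosol, at 4.11, 5.86 and 7.53 FPKM.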

How the data were processed

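The authors deposited 1 log2 value per gene symbol and library. These were read as log2(FPKM + 1): for 8423 values between 0.1 and 1, raising 2 to the value and subtracting 1 gave a number of at most 6 significant digits in 100% (relative tolerance 2e-08), against 63.5% when 0.5 was subtracted. The submitters' processing notes name STAR 2.5.1b, Cufflinks 2.2.1, FastQC 0.11.5 and hg19, without roles. The annotation, filters and use of strand are not given in the sources used here. Of 25270 symbols, 28 turned into dates were left out. No scaling was added, and genes with a mean of at least 1 FPKM were kept. Differences were counted past 2-fold (HepG2/metR) and 1.5-fold (oxamate), the folds of the study's methods. All members were named, and of each other list the 2 largest rises and falls or, in lists of 6 or fewer genes, any gene. ASNS was named outside that rule. Members and lists were chosen with earlier results of these data known. The promoter letters, level ranges, shared stretches, pair counts by scaling and FARSB to FARSA ratio were added after the values were seen. The calculation was tested on simulated data. Promoters were matched by symbol to RefSeq windows (GRCh38.p14). Alternatives were other pseudocounts, filters, scalings and folds, and sums without GARS and KARS. Python 3.11.15, numpy 2.4.6, pandas 2.3.3 and matplotlib 3.10.9 were used.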

Additional observations from a re-analysis of the deposited data

How the results depend on the processing

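With 1 library per condition there is no replicate error, and depth in reads is unknown, so a median or a change was taken as moved when it differed by 0.1 or more on the log2 scale, and a count when it differed by more than 1.5 times. Pseudocounts of 0.1 or none, no filter, a mean of at least 5 FPKM (which drops PARS2) and median-of-ratios scaling moved none of the medians or counts. Upper-quartile scaling gave medians in HepG2/metR of 0.64 (cytosolic) and -0.12 (mitochondrial), and turned the mitochondrial median with oxamate to 0.011. Scaling to the same total, with and without small RNA genes, gave oxamate medians of -0.16 and -0.14 (cytosolic) and of 0.11 and 0.13 (mitochondrial, turned in sign), left 1 and 1 cytosolic genes at least 1.5-fold lower, and without small RNA genes put 1 mitochondrial gene past 1.5-fold higher. The scaling itself shifts every gene. In HepG2/metR the median of all genes kept was 0.015 as deposited and 0.15 under the upper quartile. With oxamate it was 0.02 as deposited, and 0.17 and 0.18 under equal totals. At 1.5-fold, 2 of 20 cytosolic genes were lower in HepG2/metR, a smaller share than the 27.1% of all genes kept. At 2-fold, 0 were lower with oxamate, against 0.525% of all genes kept. Without GARS and KARS the cytosolic sum was 3.31, 6.09 and 4.49 times the mitochondrial sum. No member past its fold changed sign under any alternative. No paired analysis was possible because each condition has 1 library.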
